A study of Mus musculus with 6 samples.

Results

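The genes described here are the potassium channel family, taken as every gene whose symbol starts with Kcn and a lower-case letter. The array carried 167 probe sets for 84 such genes. For each gene the probe set with the highest mean signal over the 6 arrays was used, and the 24 genes with a mean signal of 20 or more were compared, of 12946 genes tested in all. The other 60 lay below that floor. Hearts were taken under basal conditions from 3 mice labelled KO, null for estrogen-related receptor alpha (ERRα, encoded by Esrra), and from 3 wild-type (WT) mice. All were male. The labels give C57BL/6J and an age of 2 to 3 months for 5 of them, and neither for WT 1. The sources used here do not describe the knockout allele. There was 1 array per heart, of the Affymetrix Mouse430_2 type, named in the header of WT 1, where a comment numbers that mouse differently from its title.

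Potassium channels let potassium leave the cell and so end the action potential and hold the resting potential of the heart muscle cell. Voltage-gated pore proteins open on depolarisation, and accessory subunits set their speed and number. Inward rectifiers hold the resting potential or answer to ATP and to G proteins, and two-pore channels carry a background current. The mouse heart repolarises fast and leans on transient outward and slowly inactivating voltage-gated currents. ERRα is an orphan nuclear receptor known for control of mitochondrial energy genes. The comparison asks which channel transcripts differ in the unstressed heart that lacks it.

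Of the 24 channel genes, 2 rose in the hearts labelled KO and 0 fell. The risers were Kcna5, which encodes a voltage-gated pore protein of the slowly inactivating current, and Kcne1, which encodes a small accessory subunit of the slow delayed rectifier. The other 22 did not pass the test, with log2 differences from -0.50 for Kcnv2 to 0.47 for Kcnq1ot1. Over all genes 1.77% were called higher and 1.13% lower, 2.9% together, against 8.33% of the channel genes. Here and below, the shares over all genes include dimmer genes, down to a filter signal of 8.17, so the floors differ. With all genes held to a mean signal of 20, 269 of 10022 were higher and 199 lower, with 2 and 0 channel genes. Kcne1 reached the floor only through the hearts labelled KO, and over the 23 genes with a WT mean of 20 or more the share was 1 gene, 4.35%. The test was limma on log2(signal + 16), two-sided, with Benjamini-Hochberg adjustment over all genes and a threshold of 0.05. At an unadjusted p under 0.05 there were 8 channel genes (33.3%, against 12.5% of all genes). The median log2 difference was -0.05 for the 24 genes and -0.03 for all genes. The groups did not overlap for 7 of the 24 (29.2%, against 16.2% of all genes). For 2 of these the hearts labelled KO lay above WT (8.33%, against 6.8%), and for 5 below (20.8%, against 9.44%). The 2 above were Kcna5 and Kcne1, so over the 23 genes the share above WT was also 1 gene, 4.35%. Kcne1 is likewise among the 8 genes at an unadjusted p under 0.05.

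**Figure D1:**
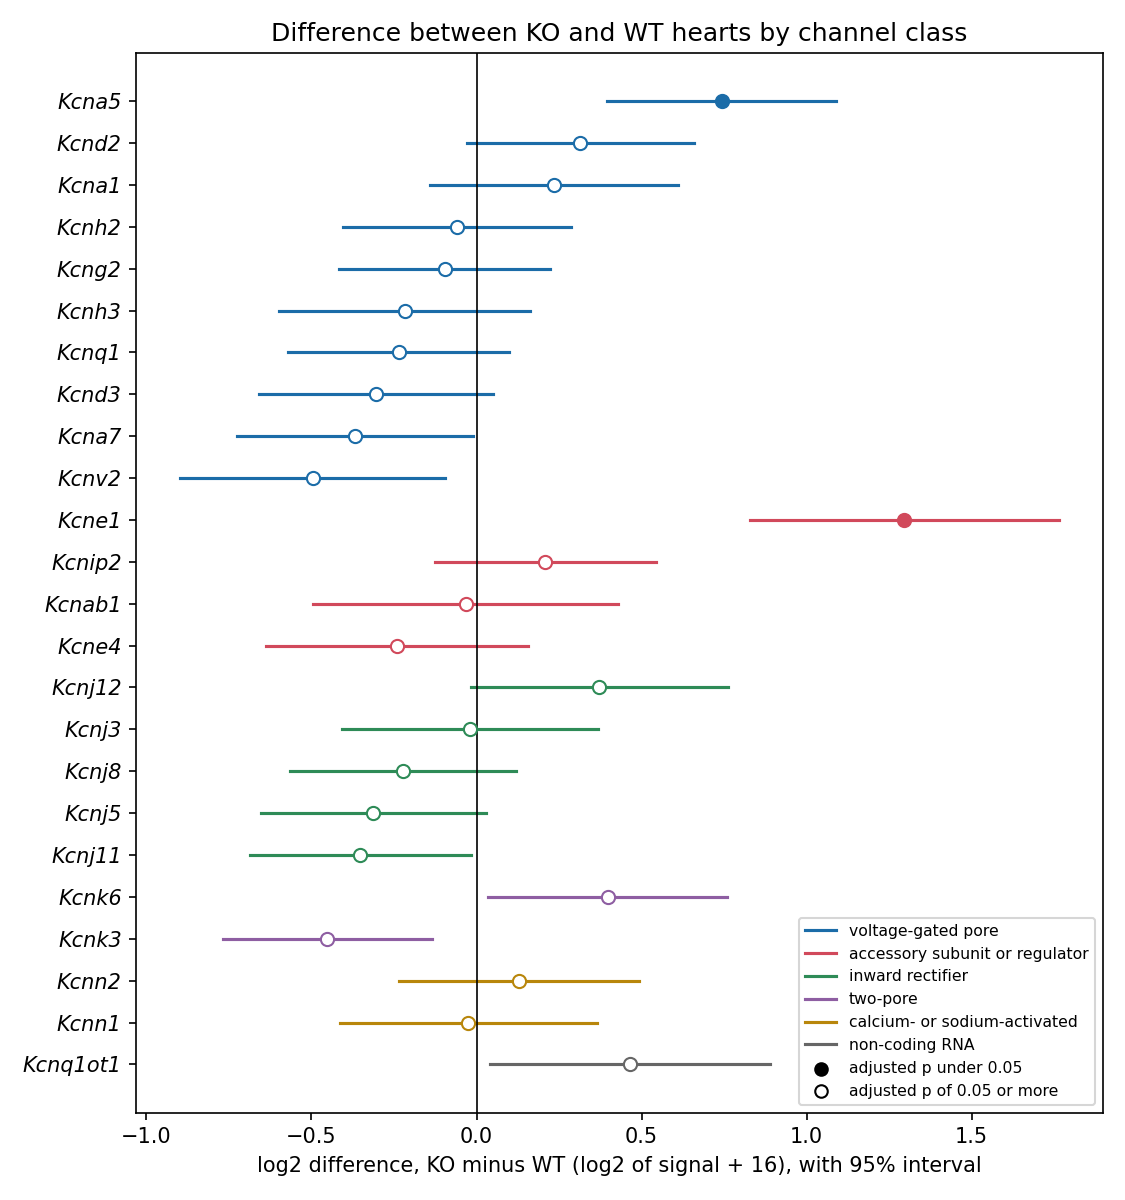
Log2 difference, KO minus WT, on log2(signal + 16), for the 24 genes by channel class. Lines are 95% intervals of the limma fit (3 against 3 hearts). Filled points, Kcna5 at 0.74 and Kcne1 at 1.30, passed the adjusted threshold of 0.05; the other 22 did not.

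Esrra, the targeted gene, comes first because it tests the genotype labels. Its signal on the brighter of its 2 probe sets was 180.1, 24 and 18 in KO 1 to 3, against 368.1, 394.4 and 349.1 in WT 1 to 3. KO 1 kept 48.6% of the WT mean, which goes against its label, while KO 2 and KO 3 kept 6.48% and 4.86%. The log2 difference was -2.58 (SE 0.288, limma adjusted p = 8.31e-09), and without WT 1 it was -2.59 (SE 0.578, limma adjusted p = 0.0677). WT 1 was the brightest array, with a median signal of 16. Among the 24 channel genes, WT 1 was the highest WT heart for 18 and WT 3 the lowest for 19. The p-values cover the spread between these hearts only, and take their variance mostly from other genes. Precision is limited by how few arrays there are. Markers of other cells also moved with genotype. Of 8 atrial myocyte markers 7 rose, with a summed signal of 14018.7 to 16649 in the hearts labelled KO, against 3139 to 9899.5 in WT. All 4 adipocyte markers tested rose, and the sum over the 5 on the array was 318.2 to 1821.4 against 75.8 to 100.6. Of 6 smooth muscle and pericyte markers 2 rose, with sums of 6126.3 to 8035.5 against 4784.7 to 5718.1. Fibroblast markers summed to 5129.7 to 5856 against 3958.4 to 4675.1, with 0 of 6 past the test. All 6 were nonetheless higher without overlap (6.8% of all genes) and had an unadjusted limma p under 0.05 (12.5% of all genes). The list named for ventricular myocytes (Myl2, Myh6, Tnni3, Actc1, Ryr2 and Tnnt2) summed to 42922.5 to 45722.8 against 44401.3 to 50070.6, with 0 of 6 past it. These genes are not all confined to ventricle, so the sum does not measure ventricular content. No marker read 0 in any heart, and their part in the channel results was not tested.

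Of the 4 genes taken to mark this family in heart, Kcna5, Kcnq1 and Kcne1 passed the floor and Kcnj2 did not. Kcnj2 encodes the main pore of the classical inward rectifier current. Its signal was 13.4, 12 and 9 in KO 1 to 3, against 19.2, 20.8 and 9.7 in WT 1 to 3. Its groups overlapped, and it did not pass (log2 difference -0.23, SE 0.222, interval from -0.68 to 0.22). The WT mean of Kcne1 was 18.2, the only one of the 24 under 20. Without detection calls, signals this dim cannot be separated from background.

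In WT hearts the highest signal in the family was that of Kcnip2, at 579 ± 102 (SD, n = 3). Kcnk3 followed at 490 ± 63.2, then Kcng2 at 366 ± 40.4, Kcnh2 at 341 ± 32.3, Kcnj11 at 246 ± 28.5 and Kcnj8 at 238 ± 50.3. Kcnq1 at 195 ± 14.5, Kcnj3 at 169 ± 39.6, Kcnj5 at 156 ± 20.0 and Kcnd2 at 147 ± 16.9 completed the first 10. This is an order of signals, which also depend on the probes, and not of transcript amounts. The ranges of mean ± SD of neighbours met, except for Kcnk3 above Kcng2, Kcnh2 above Kcnj11 and Kcnd2 above Kcna5 (109 ± 15.2). Of the 24 genes 11 had a WT mean of 100 or more and 9 a mean under 50. Among the 24 genes Kcne1 moved most in the order over all 84, standing 13th by signal in the hearts labelled KO and 27th in WT. Kcna5 stood 6th in the hearts labelled KO and 11th in WT. Just above the floor lay Kcne4 (mean signal 30.25), Kcnn1 (28.5) and Kcnab1 (23.7), and just below it Kcnt2 (18.6), Kcnn4 (18.5) and Kcnmb1 (18.4).

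**Figure D2:**
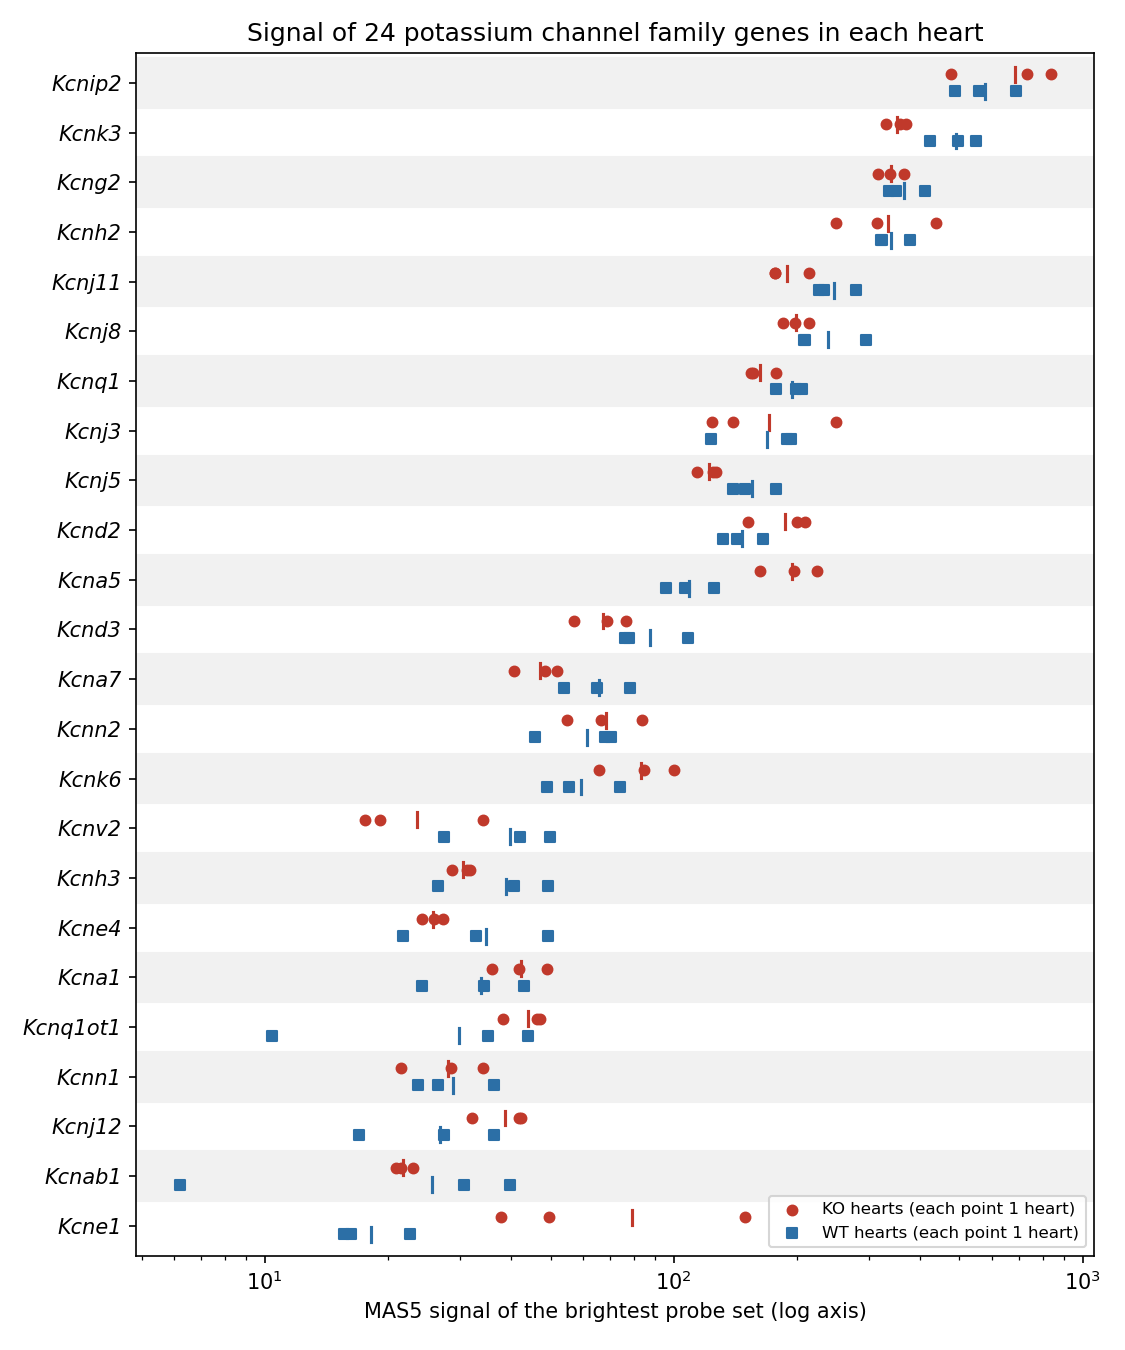
MAS5 signal of the brightest probe set of each of the 24 genes, on a log axis, with 1 point per heart, hearts labelled KO (circles) above WT (squares), ordered by WT mean. Short vertical lines are group means. Kcna5 and Kcne1 have every KO point right of every WT point, and Kcnk3 has every KO point left of every WT point.

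Among voltage-gated pore genes 1 of 10 rose, 0 fell and 9 did not pass. Kcna5 gave 223.8, 162.3 and 196.4 in KO 1 to 3, against 125.7, 106.4 and 95.7 in WT 1 to 3. Every heart labelled KO lay above every WT heart. Kcna5 averaged 194 ± 30.8 in the hearts labelled KO and 109 ± 15.2 in WT (SD, n = 3 each). On the log2 scale it was higher by 0.74 (SE 0.172, interval from 0.40 to 1.09, limma adjusted p = 0.00618). Without KO 1, the heart with residual Esrra signal, the difference was 0.64 (limma adjusted p = 0.049). The adjusted p was 0.0527 without WT 3 and 0.0849 with no filter on dim probe sets. The WT heart with the most atrial marker signal, WT 3, had the lowest Kcna5 of the 3, and KO 1, with the most among the KO hearts, had the highest. In whole hearts more cells of a type and more RNA per cell cannot be told apart.

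The array has 1 Kcna5 probe set. Another gene of the same subfamily, Kcna7, lay the other way. It encodes a pore protein of heart and skeletal muscle, and gave 40.6, 51.9 and 48.6 in KO 1 to 3, against 65, 53.8 and 78.4 in WT 1 to 3. All KO values lay below all WT values, by a narrow margin between KO 2 and WT 2, and the difference of -0.37 (SE 0.177) did not pass (limma adjusted p = 0.371). The windows around the annotated starts of these genes, from RefSeq on GRCm38.p6, are shown because these are the subfamily members whose groups separated, in opposite directions. Each runs from 250 bases before the start, in lower case, over the first 50 transcribed bases, in capitals. The Kcna5 window is chr6:126535506-126535805 on the minus strand and the Kcna7 window chr7:45405710-45406009 on the plus strand, both written along the gene.
Kcna5: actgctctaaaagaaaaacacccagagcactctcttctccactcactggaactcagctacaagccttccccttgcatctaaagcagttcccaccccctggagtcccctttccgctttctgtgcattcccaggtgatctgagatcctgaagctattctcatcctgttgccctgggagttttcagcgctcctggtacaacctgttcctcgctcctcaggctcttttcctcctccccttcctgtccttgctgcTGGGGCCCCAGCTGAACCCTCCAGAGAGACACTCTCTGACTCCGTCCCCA
Kcna7: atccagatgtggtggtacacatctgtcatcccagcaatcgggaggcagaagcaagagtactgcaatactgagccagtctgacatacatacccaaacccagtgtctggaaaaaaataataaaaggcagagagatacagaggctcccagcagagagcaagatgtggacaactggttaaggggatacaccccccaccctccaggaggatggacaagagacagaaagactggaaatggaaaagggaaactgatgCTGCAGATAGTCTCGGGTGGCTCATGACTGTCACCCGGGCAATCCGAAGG

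G and C make up 55% of the Kcna5 window and 50.3% of the Kcna7 window. Elements bound by ERR-type receptors were searched on both strands of such windows. The extended half-site TNAAGGTCA, its core AAGGTCA and the nuclear receptor half-site AGGTCA, each contained in the one before, were the motifs searched. Of the 24 genes 14 had a window in the RefSeq table, 17 windows in all, and 0 of the 17 held any of the 3 motifs. Over all 32851 windows 1.28%, 4.72% and 16.3% held them, in that order. The result says only that these letters are not in these windows.

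The genes of the transient outward current lay in opposite directions without passing. Kcnd2, the main pore gene of its fast component in mouse ventricle, gave 152.1, 200.2 and 209.2 in KO 1 to 3, against 165.2, 142.7 and 132 in WT 1 to 3. KO 2 and KO 3 lay above all WT hearts and KO 1 among them. The difference was 0.31 (SE 0.171, limma adjusted p = 0.471), and 0.45 without KO 1 (limma adjusted p = 0.3). Kcnd2 had 2 more probe sets above the floor, at 0.19 and 0.41 in a fit over every probe set. Kcnd3, a second pore gene of this current, gave 76.4, 68.7 and 57 in KO 1 to 3, against 108.6, 77.6 and 76.1 in WT 1 to 3. KO 2 and KO 3 lay below all WT hearts, and the difference was -0.30 (SE 0.176). Kcna4, the pore gene of the slow component, fell below the floor, with signals of 2.2 to 11.9 in the hearts labelled KO and 9.2 to 17.8 in WT.

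The remaining voltage-gated pore genes, among them those of the slow and rapid delayed rectifiers, did not pass. Kcnq1, whose product pairs with that of Kcne1, gave 177.8, 154.7 and 156.1 in KO 1 to 3, against 199.5, 206.1 and 178.4 in WT 1 to 3. The groups did not overlap, although KO 1 and WT 3 nearly met, and the difference of -0.24 (SE 0.166, interval from -0.57 to 0.10) did not pass. Kcnh2, the pore gene of the rapid delayed rectifier, gave 249.3, 314 and 438.3 in KO 1 to 3, against 378, 322.6 and 321.4 in WT 1 to 3. The KO values spread on both sides of WT. Its difference of -0.06 (SE 0.171) became 0.12 without KO 1 and 0.01 without WT 1. Kcng2, a modulatory subunit that forms no channel alone, was at -0.10 (interval from -0.42 to 0.22), and Kcnh3, a pore gene known from brain, at -0.22. Kcna1, a pore gene known mainly from neurons, was at 0.24, with its other probe sets above the floor at 0.13 and -0.25. Kcnv2, a silent subunit known from retina, gave 34.1, 19.1 and 17.6 in KO 1 to 3, against 49.9, 42 and 27.4 in WT 1 to 3. KO 2 and KO 3 lay below all WT hearts. The difference was -0.50 (SE 0.199, limma adjusted p = 0.224), and -0.68 without KO 1 (limma adjusted p = 0.055).

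Among accessory subunits 1 of 4 rose, 0 fell and 3 did not pass. Kcne1 gave 37.9, 49.5 and 149.6 in KO 1 to 3, against 16.3, 22.7 and 15.6 in WT 1 to 3. Every heart labelled KO lay above every WT heart, and KO 3 stood far above the other two. It averaged 79.0 ± 61.4 in the hearts labelled KO and 18.2 ± 3.91 in WT (SD, n = 3 each). The log2 difference was 1.30 (SE 0.232, interval from 0.83 to 1.76, limma adjusted p = 0.000195). Because the WT signals cannot be separated from background, this size holds only for the offset of 16 added before the log. It was 1.67 with an offset of 4 and 0.72 with one of 64. Without KO 3 it was 0.80 (limma adjusted p = 0.0284), and without KO 1 it was 1.61 (limma adjusted p = 1.65e-11). Without WT 1 it was 1.26 and did not pass (limma adjusted p = 0.161). The variance shared between genes had 43.4 prior degrees of freedom with all hearts and 7.22 without WT 1. Without KO 1 or KO 3 they were infinite, so a gene's own spread did not count. Adjusted p-values with different hearts left out are therefore not on 1 scale. Kcne1 also missed the threshold with quantile normalization (limma adjusted p = 0.0565), with cyclic loess (0.0581) and with no filter (0.149). Over KO 1 to 3 the atrial marker sum was 16649, 15531.6 and 14018.7, the reverse of the Kcne1 order. The fibroblast (5129.7, 5133.2 and 5856), leukocyte (931, 1227.3 and 1365.2), endothelial (940, 1014.7 and 1184.2) and conduction system sums (56, 87.4 and 90.5) had the same order as Kcne1. The smooth muscle and pericyte sum (6126.3, 6793.9 and 8035.5) did too, but not without Acta2 (4098.3, 3512 and 4302.7). The adipocyte, ventricular, neural and skeletal muscle sums had neither order. An order over 3 hearts says little, and the part of these cells in Kcne1 was not tested.

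The second Kcne1 probe set told less. It gave 2.9, 25.3 and 52.8 in KO 1 to 3, against 3.5, 20.6 and 17.7 in WT 1 to 3. KO 2 and KO 3 lay above all WT hearts, while KO 1 was below them all, and the difference over every probe set was 0.39 (SE 0.398). With the mean of both probe sets Kcne1 was at 0.84 and did not pass (limma adjusted p = 0.114).

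Kcnip2 encodes the calcium-binding subunit that brings the transient outward pores to the membrane. It gave 478, 732.3 and 835.8 in KO 1 to 3, against 689.1, 559.4 and 487.8 in WT 1 to 3. KO 1 was the lowest of the 6 hearts and KO 2 and KO 3 the highest. The difference was 0.21 (SE 0.166, limma adjusted p = 0.697), and 0.44 without KO 1 (limma adjusted p = 0.218). Its second probe set gave 314.5, 449.5 and 564.9 in KO 1 to 3, against 348, 271.5 and 275.9 in WT 1 to 3, the same order of KO hearts. There KO 1 lay among the WT hearts, and the difference was larger, at 0.52 (SE 0.186) in the fit over every probe set. Kcne4, an inhibitory subunit, was at -0.24 (SE 0.198), and Kcnab1, a cytoplasmic subunit of voltage-gated pores, at -0.03 (SE 0.229). Kcnab1 gave 21.6, 20.9 and 23 in KO 1 to 3, against 30.7, 6.2 and 39.9 in WT 1 to 3, so the KO hearts lay within the WT range.

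**Figure D3:**
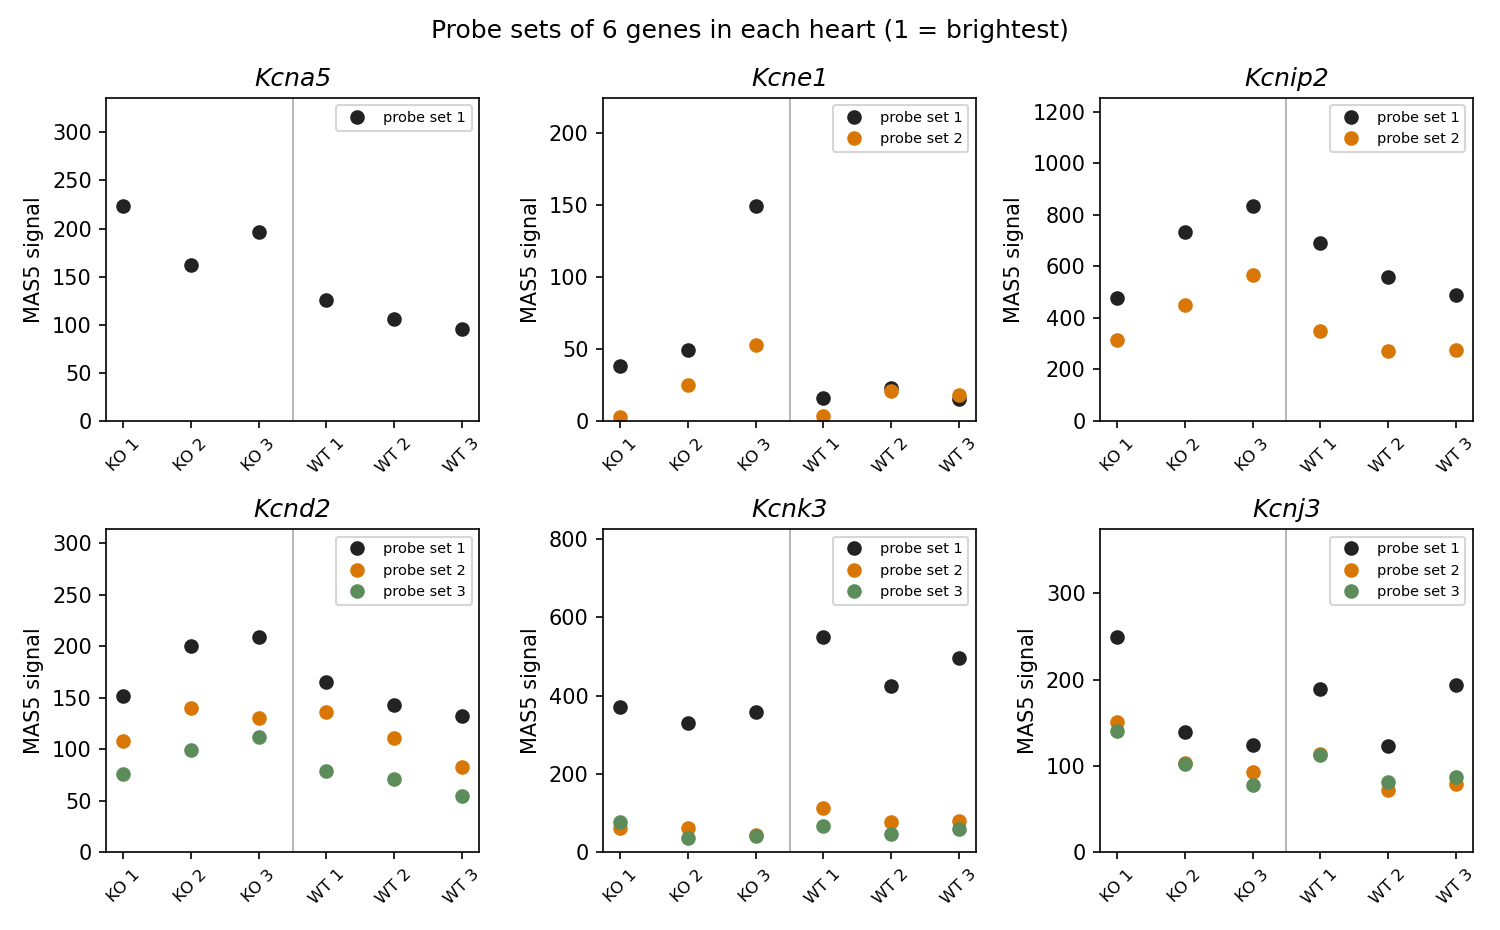
MAS5 signal of the brightest probe sets of 6 genes in each heart, hearts labelled KO left of WT, linear axes from 0. The Kcne1 signal of 149.6 in KO 3 stands apart, and the Kcnip2 and Kcnd2 probe sets are higher in KO 2 and KO 3 than in KO 1.

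Of 5 inward rectifier genes 0 passed in limma (1 at an unadjusted p under 0.05, beside 12.5% of all genes), and 4 had negative differences. Kcnj11 encodes the pore of the ATP-sensitive channel of heart muscle. It gave 176.6, 177.3 and 214.1 in KO 1 to 3, against 278.9, 233.1 and 226.7 in WT 1 to 3. The groups did not overlap, and the difference of -0.35 (SE 0.166, interval from -0.69 to -0.02) did not pass (limma adjusted p = 0.356). Kcnj8, the pore gene of the ATP-sensitive channel of vessel walls, was at -0.22 (interval from -0.56 to 0.12). Of the vessel wall markers Acta2 (0.87) and Cnn1 (0.84) rose. Tagln (0.54), Myh11 (0.22) and the pericyte genes Rgs5 (0.02) and Pdgfrb (-0.12) did not pass. The separation of that list's sum came from Acta2, and the other 5 genes summed to 4098.3, 3512 and 4302.7 in KO 1 to 3, against 4115.3, 3563.5 and 3678.7 in WT 1 to 3. Most of that remaining sum was Rgs5, at 3216.3, 2786.5 and 3621.2 in KO 1 to 3, so it says little of the dimmer genes. The part of vessel wall cells in Kcnj8 was not tested.

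Kcnj3 and Kcnj5 encode the 2 pore subunits of the acetylcholine-activated channel, which is richest in atria and nodes. Kcnj5 gave 126.8, 124.9 and 114 in KO 1 to 3, against 178.3, 149.4 and 139.8 in WT 1 to 3. The KO values lay below all WT values, and the difference of -0.31 (SE 0.169) did not pass, while its other probe set was at 0.01. Kcnj3 gave 249.4, 139.5 and 123.8 in KO 1 to 3, against 189.5, 123.3 and 193.9 in WT 1 to 3. Its groups overlapped (difference -0.02, SE 0.193), and its 2 other probe sets above the floor were at 0.33 and 0.14. Neither gene passed. Of the 8 atrial markers 7 rose, from 0.99 for Stard10 to 2.28 for Sln on the same scale, and Nr2f2 was at 0.02. On the brightest probe sets, both channel genes had the order of the atrial marker sum over KO 1 to 3. WT 3, the WT heart with the most atrial marker signal, was the highest WT heart for Kcnj3 and the lowest for Kcnj5. The part of atrial cells in these genes was not tested. Kcnj12, a second pore gene of the classical inward rectifier, gave 32.1, 41.9 and 42.3 in KO 1 to 3, against 36.3, 27.4 and 17 in WT 1 to 3. KO 1 lay among the WT hearts, and the difference of 0.37 (SE 0.194) did not pass.

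Of the 2 two-pore genes, which differed in sign, 0 passed, and both had an unadjusted limma p under 0.05 (12.5% of all genes). Kcnk3 encodes an acid-sensitive background channel. It gave 370, 330 and 357.7 in KO 1 to 3, against 550, 424 and 496.5 in WT 1 to 3. Every heart labelled KO lay below every WT heart, with means of 353 ± 20.5 in KO and 490 ± 63.2 in WT (SD, n = 3 each). The difference was -0.45 (SE 0.157, interval from -0.77 to -0.14, limma adjusted p = 0.123). It did pass in the fits with scaled arrays, with limma adjusted p of 0.0285 by quantile normalization, 0.0223 by median centring and 0.0282 by cyclic loess. The difference was no larger there, at -0.42, -0.45 and -0.41 in that order. The SE was smaller, at 0.0861, 0.0913 and 0.0858. The prior degrees of freedom of the shared variance were also fewer, at 6.78, 7.62 and 6.86 against 43.4. Its second probe set gave 62.8, 62.2 and 43.6 in KO 1 to 3, against 113.3, 77.5 and 80.1 in WT 1 to 3, again without overlap. The remaining one was at -0.16 with overlap. Kcnk6, a weakly rectifying two-pore channel gene, gave 65.8, 84.4 and 100 in KO 1 to 3, against 73.8, 55.4 and 49.1 in WT 1 to 3. KO 2 and KO 3 lay above all WT hearts, and the difference of 0.40 (SE 0.179) did not pass (limma adjusted p = 0.323). Kcnk2, a stretch-sensitive relative, lay below the floor at 15.5 to 19 in the hearts labelled KO and 16 to 21.2 in WT.

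Kcnn2 and Kcnn1, pore genes of small-conductance calcium-activated channels, showed no detectable difference. Kcnn2 gave 54.8, 83.8 and 66.5 in KO 1 to 3, against 67.8, 70.3 and 45.8 in WT 1 to 3 (0.13, interval from -0.24 to 0.49). Kcnn1 was at -0.02 (interval from -0.41 to 0.37). Both groups overlapped for each gene. Kcnq1ot1, a long non-coding RNA made from the opposite strand within Kcnq1 and known for imprinting, is in the family by symbol only. It gave 38.2, 47.2 and 46.4 in KO 1 to 3, against 44.1, 35.2 and 10.4 in WT 1 to 3. WT 3 stood low, and the difference of 0.47 (SE 0.210) did not pass (limma adjusted p = 0.324). Its other probe sets above the floor were at 0.13 and 0.02, with overlap.

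For Kcnip2, Kcnd2, Kcnk6, Kcnq1ot1 and Kcnj12 both KO 2 and KO 3 lay above all WT hearts while KO 1 did not. For Kcnd3 and Kcnv2 both lay below all WT hearts while KO 1 did not. Without KO 1 the difference was larger in size for 19 of the 24 genes and turned sign for 1, Kcnh2. It was larger for 17 without WT 2 and for 7 to 13 without one of the other 4 hearts, so a gain of this kind is not particular to KO 1. The count past the test without KO 1 was again 2 higher and 0 lower. Without WT 1 it was 1 higher, Kcna5, and 0 lower. Of the 10 genes with several probe sets above the floor, 7 had 1 sign over all of them, and Kcna1, Kcnj3 and Kcnj5 did not.

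**Figure D4:**
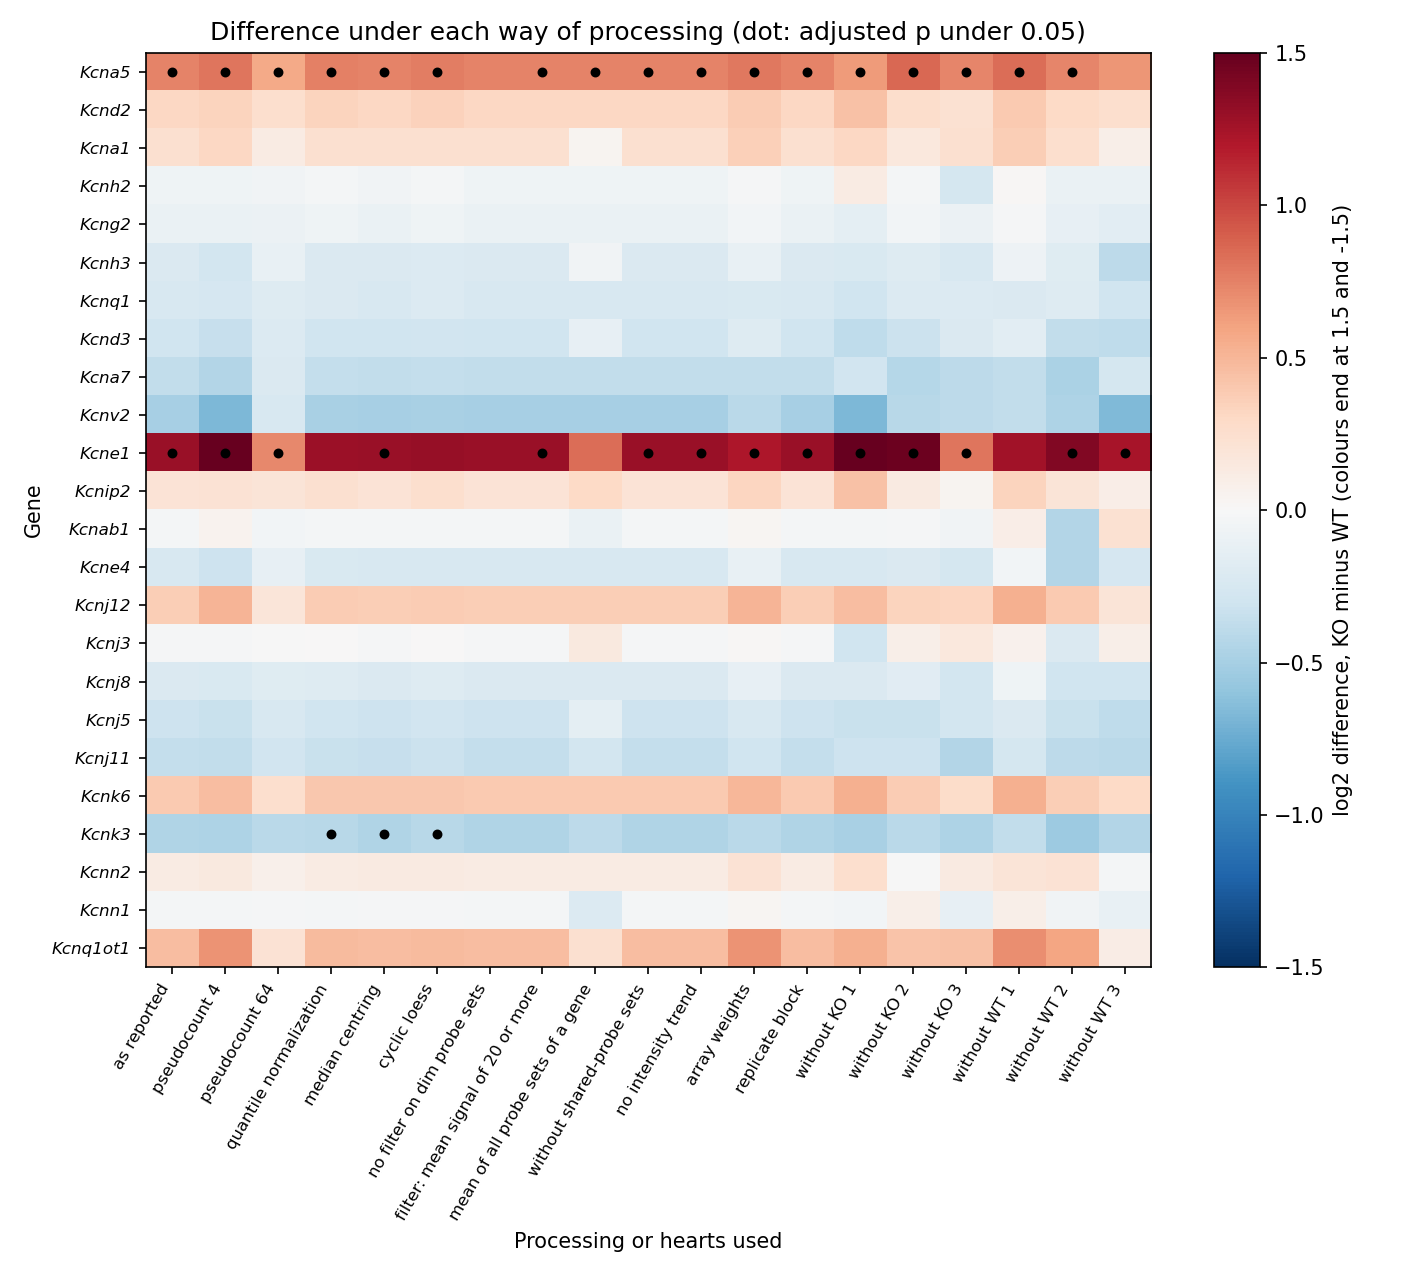
Log2 difference, KO minus WT, of the 24 genes (vertical, by class) as reported and under 18 other ways of processing or choices of hearts (horizontal). Colour gives the difference and a dot an adjusted p under 0.05. Kcna5 keeps its dot in all but 2 alternatives, Kcne1 in all but 5, and Kcnk3 gains one in 3.

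The 60 genes below the floor had mean signals of 1.22 to 18.6, 44 of them under 10, and no single reading above 32.1. Of these, 18 were bright enough to be tested and 0 passed in limma (1 at an unadjusted p under 0.05, beside 12.5% of all genes). Differences ran from -0.43 for Kcna4 to 0.46 for Kcnt2, with limma adjusted p of 0.329 or more. Kcnt2, a sodium-activated pore gene, gave 20.7, 19.9 and 32.1 in KO 1 to 3, against 14.1, 14.5 and 10.5 in WT 1 to 3, without overlap. Kcnmb1, the smooth muscle subunit of the large calcium-activated channel, gave 20.1, 14.7 and 16.4 in KO 1 to 3, against 19.8, 22.4 and 17 in WT 1 to 3. The pore gene of that channel, Kcnma1, read 2.5 to 21.1 in the hearts labelled KO and 3.9 to 16 in WT. Kcne2, an accessory subunit, had a mean of 8.53, and Kcnn3, another small-conductance pore gene, of 2.62.

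Genes that move potassium by other means, or that anchor, modulate or control these channels, were read from a list of 57, of which 45 were on the array and 40 were tested. By limma 0 rose, 2 fell (5%, against 1.13% of all genes) and 38 did not pass, with a median difference of 0.03. At an unadjusted limma p under 0.05 there were 9 of the 40 (22.5%, against 12.5% of all genes), 7 of them among the 38. Slc12a7, a potassium-chloride cotransporter, gave 558.6, 410.2 and 425.7 in KO 1 to 3, against 777.9, 632.4 and 639.4 in WT 1 to 3. The groups did not overlap (-0.55, SE 0.155, limma adjusted p = 0.0364). Irx4, a transcription factor of ventricular muscle, gave 42.2, 49 and 54 in KO 1 to 3, against 106.1, 77 and 74.9 in WT 1 to 3. Its groups did not overlap either (-0.65, SE 0.176, limma adjusted p = 0.0243), and the part of ventricular content in this was not tested. Without WT 1, and without KO 2, neither passed. Slc12a7 alone of the pair passed without KO 1, and Irx4 alone without KO 3 or without WT 3. Atp1b1, the main sodium pump β subunit gene of heart, was at 0.42 (SE 0.133, limma adjusted p = 0.0828). Irx3 (0.35) and Irx5 (-0.19), transcription factors that act on Kcnd2, did not pass. Abcc9, the ATP-sensitive channel's regulatory subunit gene in heart, was at -0.21 (SE 0.139), the same sign as Kcnj11 and Kcnj8.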

How the data were processed

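The deposited values are MAS5 signals, a linear intensity for each probe set, per the submitters' processing notes; no source used here gives the scaling target. Of 45099 probe sets 62 are controls. GEO's platform table gave 1 symbol for 34945, several for 932 and none for 9160; both of the last kinds were left unnamed. All 84 channel genes matched the GRCm38 RefSeq table, and 0 symbols changed. Values were taken as log2(signal + 16) without further scaling. Probe sets with a mean log2 at or above the 40th percentile of non-control probe sets (4.59, a signal of 8.17) were kept, and the brightest by mean signal stood for its gene, which left 12946 genes. KO and WT (3 each, by title) were compared by lmFit, then eBayes allowing the variance to follow intensity (limma 3.58.1, R 4.3.3), tested on simulated data first. With 43.4 prior degrees of freedom behind the variance shared between genes, a gene's p depends little on its own spread. No 2 arrays held identical values.

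Named genes were Esrra, genes past the threshold, the 4 markers, genes of the cardiac potassium currents, the 10 largest differences, the 10 brightest in WT, the 3 genes on either side of the floor, and partners past the threshold; the other partners, markers and below-floor genes named were chosen after their values were seen. The members and lists were chosen with earlier results of these data known. Alternatives were other pseudocounts, scalings, filters, probe set rules and variance models, weighting the arrays, blocking on the replicate number, and omitting each heart in turn.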

Additional observations from a re-analysis of the deposited data

How the results depend on the processing

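Under 18 alternatives, 19 of the 24 channel genes kept their direction. With no filter on dim probe sets 0 channel genes were higher (49 higher and 18 lower over all genes, 0 lower partners). Quantile normalization and cyclic loess gave 1 higher and 1 lower channel gene each, median centring 1 lower, and the mean of all probe sets 1 higher. Over all genes 231 were lower with median centring; with no intensity trend 119 were higher and 57 lower; with array weights 435 were higher. Leaving out one heart gave 1 to 2 higher and 0 lower channel genes, 106 to 307 higher and 22 to 209 lower genes in all, 0 to 2 higher and 0 to 3 lower partners, and -3.39 to -2.12 for Esrra. Partners numbered 1 higher under each of the 3 scalings and with the filter at a signal of 20, and 2 with array weights; 1 was lower with the mean of all probe sets and 0 with no trend. Signs turned for Kcnj3 with quantile normalization (0.0017), cyclic loess (0.0105), the mean of all probe sets (0.15) and array weights (0.0177), for Kcnn1 with array weights (0.033), and for Kcnab1 with pseudocount 4 (0.049) and array weights (0.033). They also turned with single hearts left out, where Kcnh2 ranged from -0.27 to 0.12, Kcnj3 from -0.30 to 0.16, Kcnn2 from -0.0258 to 0.247, Kcnn1 from -0.122 to 0.0909 and Kcnab1 from -0.43 to 0.23. The cause was not tested. The samples share only a number: deviations of equally numbered hearts correlated at 0.0295, -0.0162 and 0.0281, and with the replicate block 2 channel genes were higher and 0 lower (224 and 168 of all genes). Dim signals limit Kcne1 and the genes below the floor.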
